A study of Mus musculus with 6 samples.

Results

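Forkhead, Sox, T-box, GATA and basic helix-loop-helix (bHLH) transcription factors were examined through the cytosines whose nearest transcription start belonged to one of their genes. The genes were taken by name: Fox followed by a letter and a digit, or Sox, Tbx, Gata, Hand, Twist, Hes, Hey, Neurog, Neurod, Ascl, Atoh, Olig, Bhlhe or Id followed by a digit. This rule took 100 of the 6756 cytosines in the authors' deposited tables, and 40 of the 3344 nearest genes. No gene with the prefix Gata, Atoh or Id was among the 40, so the values describe forkhead, Sox, T-box and bHLH genes only.

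The samples were LSK cells, the bone marrow fraction that lacks lineage markers, carries Sca-1 and Kit and holds the blood stem and progenitor cells. They were sorted from mice aged 6 months, with 3 Tet1 KO samples and 3 WT samples, all of the strain labelled CD57BL/6. Methylation was read by an enhanced form of reduced representation bisulfite sequencing, which favours CpG-rich DNA. The allele behind the knockout, and whether the samples of a group were separate mice, are not stated in the sources used here. Each listed cytosine carries 1 difference over all samples, Tet1 KO minus WT in percentage points, of at least 25 in size, with no value per sample. Replicate spread, coverage and the purity of the sort could therefore not be checked here, and the depth behind each difference is unknown. The direction was taken from the list names and signs. A gene name marks the nearest start and does not show that the gene is regulated from that site.

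Each of these families is defined by a shared protein domain, which binds DNA in all but the Id proteins. Forkhead proteins bind through a winged helix and Sox proteins through an HMG box that bends DNA. T-box proteins pattern mesoderm, heart and limb, and GATA proteins use zinc fingers, several of them in blood. Proneural bHLH proteins drive neuron formation with E protein partners, Hes and Hey proteins repress genes downstream of Notch, and Id proteins block bHLH dimers. Many of the genes act in embryonic tissues rather than in blood and start in CpG-rich DNA. Tet1 encodes a dioxygenase that oxidises 5-methylcytosine, and bisulfite reads take 5-methylcytosine and its hydroxymethyl form as the same.

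The sequence around the starts was taken from RefSeq (GRCm38.p6) as 300-base windows, 250 bases before the start and 50 after, for the 27 of the 40 genes that the table holds. The windows of 4 genes are printed 5′ to 3′ on the gene's strand, with every CpG in capitals. Tbx6 is shown because its window holds a listed cytosine, Twist2 and its paralogue Twist1 because their sites were listed in opposite directions, and Foxi2 as the window with the fewest CpGs of the 27. They lie at chr7:126781233-126781532, chr1:91801211-91801510, chr12:33957421-33957720 and chr7:135410117-135410416 on the forward strand of GRCm38.p6.
Tbx6: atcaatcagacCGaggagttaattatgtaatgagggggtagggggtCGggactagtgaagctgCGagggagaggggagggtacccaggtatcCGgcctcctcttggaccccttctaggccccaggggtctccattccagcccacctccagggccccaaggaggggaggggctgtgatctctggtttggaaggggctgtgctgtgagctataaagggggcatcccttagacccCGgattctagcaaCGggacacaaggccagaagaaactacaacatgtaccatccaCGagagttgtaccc
Twist2: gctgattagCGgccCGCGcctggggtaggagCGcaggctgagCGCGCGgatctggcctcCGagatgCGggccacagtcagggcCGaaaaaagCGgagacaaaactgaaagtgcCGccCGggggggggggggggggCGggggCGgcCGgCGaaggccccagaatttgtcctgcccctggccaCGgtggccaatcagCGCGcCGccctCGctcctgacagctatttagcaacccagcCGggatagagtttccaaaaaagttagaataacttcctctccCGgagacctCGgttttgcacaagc
Twist1: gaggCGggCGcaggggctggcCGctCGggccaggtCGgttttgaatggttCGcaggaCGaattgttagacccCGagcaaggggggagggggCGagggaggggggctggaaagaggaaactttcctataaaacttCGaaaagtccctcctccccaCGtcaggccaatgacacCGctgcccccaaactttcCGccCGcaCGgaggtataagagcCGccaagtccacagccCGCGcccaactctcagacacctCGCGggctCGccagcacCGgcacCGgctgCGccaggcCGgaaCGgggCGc
Foxi2: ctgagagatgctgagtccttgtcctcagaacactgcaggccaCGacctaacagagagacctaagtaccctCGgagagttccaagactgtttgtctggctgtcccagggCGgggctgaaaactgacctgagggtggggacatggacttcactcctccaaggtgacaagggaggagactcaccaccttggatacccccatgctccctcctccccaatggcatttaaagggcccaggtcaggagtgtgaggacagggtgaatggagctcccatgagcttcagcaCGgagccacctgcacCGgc

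Tbx6 had 7 CpGs in its window, Twist2 had 25, Twist1 had 27 and Foxi2 had 5. The listed cytosine of Tbx6, a regulator of paraxial mesoderm, lay 239 bp upstream of the start, and at that distance the window holds the first of the CpGs in capitals (gacCGagg). That site had a difference of 26.6 percentage points per the authors' deposited table, close to the limit of the list. It was the only listed cytosine in any of the 27 windows. The share of windows holding a listed cytosine was not computed for other genes, so this count cannot be called low or high. The 27 windows had a median of 22 CpGs (quartiles 18 and 26). Whether the other CpGs of these windows were read was not tested, since cytosines outside the lists were not used here.

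By median, windows of listed genes held more CpGs than those of other protein-coding genes, as did windows of unlisted genes from the same families. The lower quartile was 18 for listed genes and 7.5 for the unlisted family genes, many of whose windows held few CpGs. The 55 unlisted genes with a window had a median of 20 CpGs (quartiles 7.5 and 29.5), and the 17410 other protein-coding genes a median of 14 (quartiles 4 and 25). Where a gene had several windows, the one with the most CpGs was used. The letters CCGG, the cut site of the enzyme usually employed in this kind of assay, read the same on both strands and always contain a CpG. CCGG occurred in 24 of the 27 windows of listed genes (88.9%), in 42 of the 55 windows of unlisted family genes (76.4%) and in 63.6% of all 17492 protein-coding windows. The enzyme itself is not named in the sources used here. No test was made of these shares, and the presence of CCGG does not show that a window was sequenced.

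**Figure D1:**
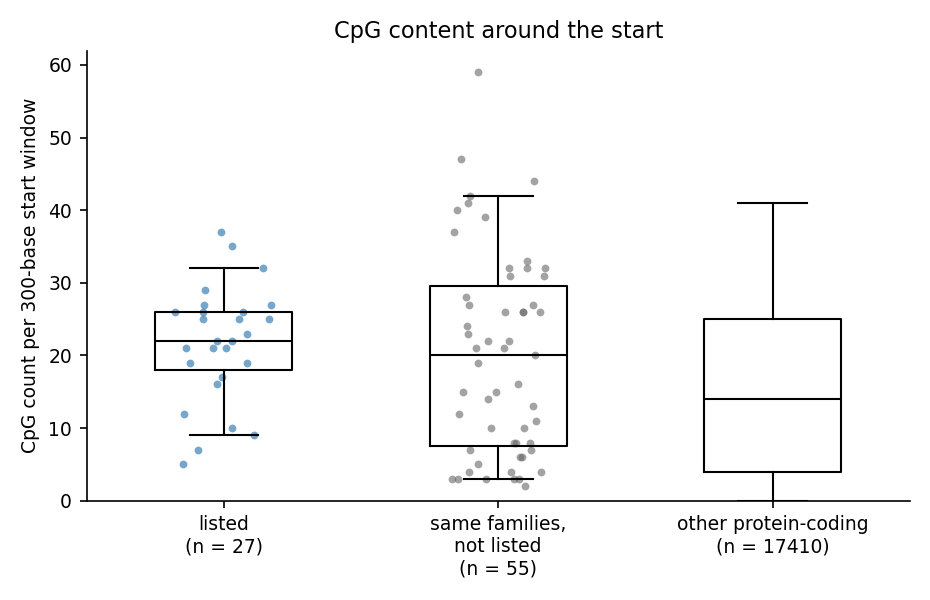
CpG count per 300-base window around the transcription start (vertical axis) for the 27 listed family genes, the 55 family genes that were not listed and the 17410 other protein-coding genes; points are genes, boxes show quartiles and median, whiskers the 5th and 95th percentiles. Medians are 22, 20 and 14, and the range of the listed genes (5 to 37) lies inside that of the unlisted family genes (2 to 59).

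Of 120 protein-coding genes in RefSeq whose symbols meet the name rule, 40 (33.3%, exact Clopper-Pearson 95% interval 25.0 to 42.5%) were nearest to a listed cytosine. Over all 21900 protein-coding genes of the same table the share was 13.7%. Hypermethylated sites were nearest to 36 of the 120 genes (30.0%, against 12.3% of all protein-coding genes) and hypomethylated sites to 4 (3.33%, against 1.77% of all protein-coding genes). These shares depend on which cytosines were read and on how far each gene lies from its neighbours, and neither was tested. By family, 13 of 44 Fox genes, 5 of 19 Sox genes, 6 of 13 Tbx genes and 16 of 38 genes with a bHLH prefix were listed. All 3 Neurog genes were listed, as were both Twist genes, all 3 Foxa genes and 2 of the 4 Neurod genes. Twist1 was listed by a single hypomethylated site, and no Foxc, Foxf, Foxj or Foxp gene was listed. None of the 6 Gata genes, 4 Id genes or 3 Atoh genes was, which does not show that methylation near them was equal in the genotypes.

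**Figure D2:**
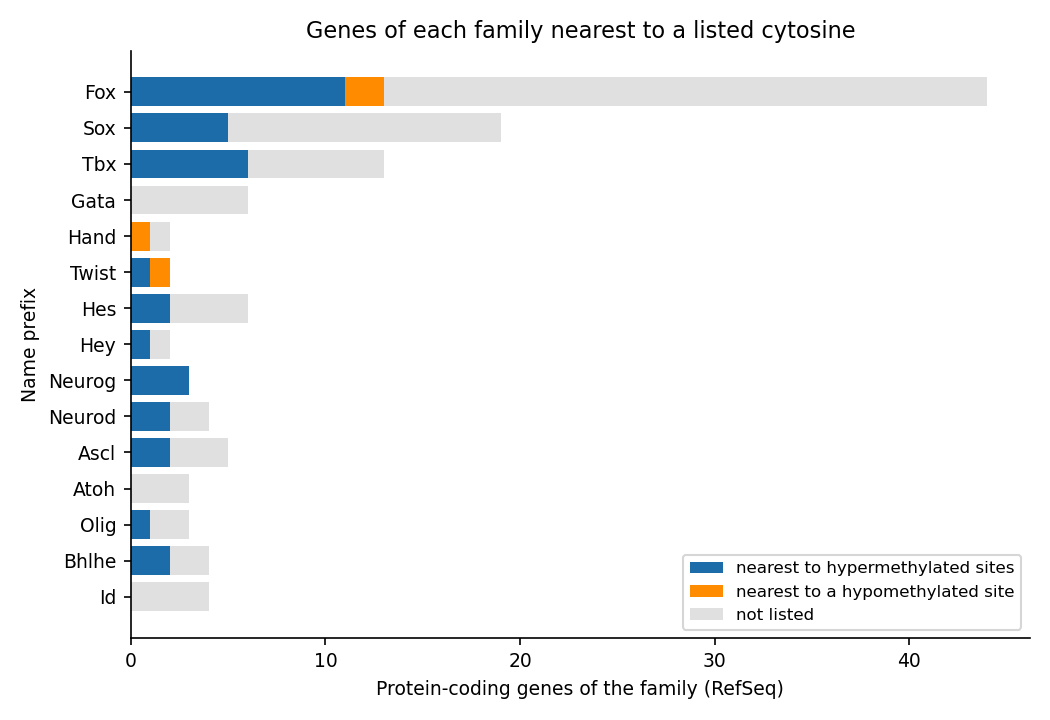
Number of protein-coding genes per name prefix in RefSeq (horizontal axis), split into genes nearest to hypermethylated sites, genes nearest to a hypomethylated site and genes not listed. Fox has 11 genes with hypermethylated sites and 2 with hypomethylated sites out of 44, and Gata, Atoh and Id have none.

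Most listed cytosines of these genes were more methylated in Tet1 KO cells: 96 of the 100 sites (96.0%, exact interval 90.1 to 98.9%). Hypermethylated sites made up 92.8% of all 6756 listed sites, which lies inside that interval. No gene had sites in both directions: 36 genes had hypermethylated sites alone (90.0%, 76.3 to 97.2%) and 4 genes had a single hypomethylated site each. Among the 3304 other genes, 87.0% had hypermethylated sites alone and 3.27% had both directions. Intervals cover counting error only, and sites of a gene are not independent.

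The differences were of similar size to those elsewhere in the lists. The 96 hypermethylated sites had a median difference of 39.6 percentage points per the authors' deposited table, quartiles of 30.5 and 48.8, and a range of 25.7 to 82.7. The exact 95% interval of that median, from the ranked values, was 36.0 to 43.4 percentage points per the authors' deposited table, counting error only. The 6174 hypermethylated sites of all other genes had a median of 41.1 percentage points in the same table, with quartiles of 33.3 and 51.4. At least 60 percentage points were reached by 13 of the 96 sites (13.5%) and by 12.3% of the others. By family, the medians per the authors' deposited table were 46.1 percentage points for 37 Fox sites, 39.3 for 37 bHLH sites, 35.4 for 11 Sox sites and 29.4 for 11 Tbx sites. These medians count every site, so genes with many sites weigh more. Of the 37 Fox sites, 10 were nearest to Foxa2 and 5 to Foxi2. Their means were 53.1 and 55.4 percentage points per the authors' deposited table. The family ranges overlapped widely, and no test was made between families.

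**Figure D3:**
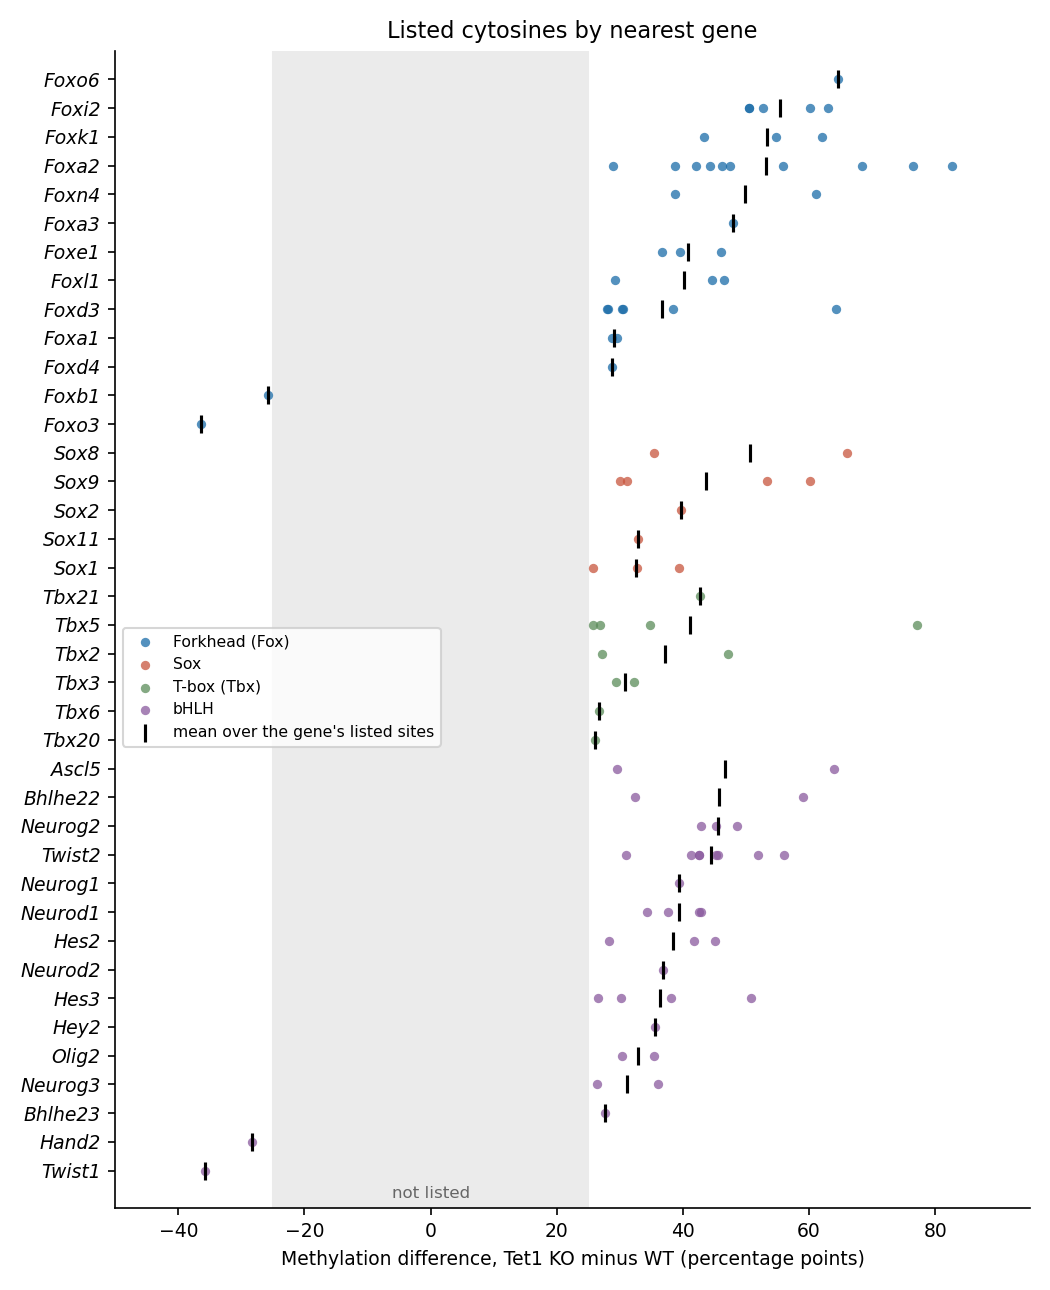
Methylation difference, Tet1 KO minus WT in percentage points (horizontal axis), for 97 of the 100 listed cytosines by nearest gene; dots are cytosines coloured by family, black ticks the mean over a gene's listed cytosines, and the grey band the range below 25 that the lists leave out. Sites of 35 genes lie above the band, up to 82.7 at Foxa2, and single sites of Foxb1, Foxo3, Hand2 and Twist1 lie below it.

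Among the 100 sites of these genes, the largest difference, 82.7 percentage points per the authors' deposited table, lay at a forkhead gene, and the highest at genes outside these families was 97.6. Foxa2, a pioneer factor that opens chromatin in endoderm, liver and floor plate, had 10 sites on chromosome 2 (147849187 to 147864452, mm9), all intergenic and downstream of its start, with a mean of 53.1 percentage points per the authors' deposited table. The farthest 5 sites, on the forward strand 23397 to 23518 bp from the start, had 82.7, 76.5, 68.5, 38.7 and 56.0 percentage points per the authors' deposited table, in order of position. A second cluster of 4 reverse-strand sites, 17322 to 17363 bp away, spanned 42.1 to 47.5 percentage points per the authors' deposited table, so the variation was within the first cluster rather than the second. The last site lay in a CpG island 8253 bp from the start and had 28.9 percentage points per the authors' deposited table. The other Foxa genes, which share that pioneer role in endoderm, had fewer sites. Foxa3 had 1 site at 48.0 percentage points per the authors' deposited table, in intron 1, 504 bp from its start, and Foxa1 had 2 sites at 28.7 and 29.6, in intron 1 and in a SINE repeat.

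Foxi2, whose window is printed above, had 5 sites in exon 2 of 2, within 51 bp on the reverse strand of chromosome 7 (142603593 to 142603643, mm9), 1543 to 1593 bp downstream of its start. Their differences per the authors' deposited table were 60.2, 63.1, 50.6, 52.8 and 50.6 percentage points, and the lowest of them exceeded the median of the whole group of genes. Foxd3, a factor of neural crest and pluripotent cells, had 6 intergenic sites spread over 203501 bp of chromosome 4 (99126144 to 99329644), 5 of them upstream of its start. The authors' deposited table gave them 64.3, 30.4, 27.9, 30.4, 38.5 and 28.2 percentage points in order of position, so a single site at 196846 bp stood above the rest. The 38.5 site was the one in a CpG island, 2386 bp upstream.

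The other forkhead genes had 1 to 3 sites each. Foxk1, a repressor of autophagy genes, had 62.1 percentage points 168390 bp upstream, and 54.7 and 43.4 in a SINE repeat 1115 and 1109 bp upstream, per the authors' deposited table. Foxe1, needed for the thyroid, had 3 intergenic sites at 36.7 to 46.1 percentage points, 4314 to 4548 bp from its start, per the authors' deposited table. Foxl1, a factor of gut mesenchyme, had 29.3 in an island 1879 bp upstream, 44.6 at its termination site and 46.6 percentage points 92732 bp downstream per the authors' deposited table. Foxn4, a retinal progenitor factor, had 38.7 percentage points 1103 bp upstream per the authors' deposited table, and its other site (61.1) lay in exon 33 of 52 of the neighbouring gene Acacb. Foxo6, a forkhead gene of the brain, had a single intronic site at 64.6 percentage points, and Foxd4 a single intergenic site at 28.8, per the authors' deposited table.

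Of the 11 Sox sites, 9 lay over 5000 bp from a start. Within 5000 bp lay 44.8% of the 96 hypermethylated sites of all these families and 45.9% of those of other genes. The 11 sites came from 5 genes, and no test was made. Sox9, the regulator of cartilage and testis formation, had 4 intergenic sites on chromosome 11 (112672313 to 112813828, mm9), all downstream, at 28789 to 170304 bp. The authors' deposited table gave them 30.0, 60.2, 53.3 and 31.1 percentage points in order of position, with the higher pair in the middle. Sox8, a relative of Sox9, had 66.0 and 35.4 percentage points per the authors' deposited table at sites 43 bp apart in intron 2 of 2, the nearest Sox sites to a start (2092 and 2135 bp). Sox1 and Sox2 maintain neural progenitors, and Sox2 also pluripotency. The 3 sites of Sox1 (39.4, 25.7 and 32.7 percentage points per the authors' deposited table) all lay in introns of the noncoding transcript Sox1ot, and the single site of Sox2 (39.7) in intron 4 of the noncoding transcript Sox2ot. Sox11, which acts in developing neurons, had 1 site at 32.8 percentage points per the authors' deposited table, 255331 bp upstream, the greatest distance among the 100.

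Of the 11 T-box sites, 8 had differences under 40 percentage points per the authors' deposited table. At least 40 percentage points were reached by 49.0% of the 96 hypermethylated sites of all these families and by 53.5% of those of other genes. The 11 sites came from 6 genes, and no test was made. Tbx5, the heart and forelimb factor, had 77.1 percentage points per the authors' deposited table at a site in a CpG island within intron 7 of 8 (chromosome 5, 120316919, mm9), while its other 3 sites, intergenic and 68063 to 138855 bp away, had 25.7 to 34.8. Tbx3, a repressor in limb and heart whose gene lies on the same stretch of chromosome 5, had 29.4 and 32.3 percentage points in exon 6 of 7 per the authors' deposited table. Tbx2, its close relative, had 27.1 percentage points 1605 bp upstream and 47.2 at its termination site per the authors' deposited table. Tbx20, a heart factor, had 26.1 percentage points 178336 bp upstream per the authors' deposited table. Tbx21, which directs helper T cells towards interferon production, had 42.8 percentage points at 1 site in intron 1 of 5 per the authors' deposited table.

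Among the mesenchymal bHLH genes, Twist2 and Twist1 were listed in opposite directions. Twist2, a dermal and mesenchymal factor, had 8 sites on chromosome 1 (93697046 to 93728751, mm9), which averaged 44.5 percentage points per the authors' deposited table. Upstream of its start, 3 reverse-strand sites at 989 to 1008 bp had 42.5, 56.0 and 45.3 percentage points per the authors' deposited table, and the nearest of them carries the promoter annotation. Downstream, 3 forward-strand sites at 656 to 703 bp had 45.6, 42.6 and 41.3 percentage points per the authors' deposited table, in the 3′ UTR and in an intronic CpG island. Listed sites thus flanked the printed window of Twist2 on both sides, with none in it. The remaining sites lay in intron 1, 17906 and 30697 bp from the start, with 51.8 and 31.1 percentage points per the authors' deposited table. Twist1, needed for mesoderm and skull formation, had 1 site at -35.7 percentage points per the authors' deposited table, in a LINE repeat 57619 bp from its start (chromosome 12, 34700155). The Twist1 site and the Twist2 sites thus differed in distance and repeat content as well as in sign.

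The Hes genes carried 3 of the 5 promoter sites. Hes3, a Notch pathway repressor of neural progenitors, had 26.5, 50.9 and 38.2 percentage points per the authors' deposited table at 358, 929 and 942 bp upstream of its start (chromosome 4, 151666129 to 151666713, mm9). Its other site, at 30.2, lay in the last exon of the neighbouring gene Gpr153. Hes2, another Hes family repressor, had 45.1 percentage points in its 5′ UTR, 113 bp from the start, and 41.8 and 28.3 in exon 3 of 5 per the authors' deposited table. The site at 113 bp was the nearest to a start of all 100. Hey2, a Notch target in heart and vessels, had 35.6 percentage points at 1 site 1450 bp upstream per the authors' deposited table.

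The proneural genes had moderate differences. Neurog1, Neurog2 and Neurog3 specify neurons, and Neurog3 also pancreatic endocrine cells. Neurog2 had 42.9, 45.2 and 48.5 percentage points per the authors' deposited table, the last pair 62386 and 62426 bp away in intron 4 and exon 4 of the neighbouring gene Alpk1. Neurog3 had 26.3 percentage points in its 3′ UTR and 36.0 at 25319 bp, and Neurog1 had 39.3 at 32892 bp, per the authors' deposited table. Neurod1, which acts later in neurons and endocrine cells, had 42.5 percentage points in its 3′ UTR and 42.9, 37.6 and 34.3 at 3232 to 3439 bp upstream per the authors' deposited table, the narrowest range among genes with at least 4 sites. Neurod2, a factor of cortical neurons, had 1 site at 36.9 percentage points per the authors' deposited table.

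Ascl5 had 63.9 percentage points 9962 bp upstream and 29.5 in its only exon per the authors' deposited table. Olig2, required for oligodendrocytes and motor neurons, had 35.4 and 30.3 percentage points at sites 9 bp apart, 55735 to 55744 bp upstream, per the authors' deposited table. Bhlhe22, a factor of retinal and cortical neurons, had 59.0 and 32.4 percentage points upstream per the authors' deposited table, and Bhlhe23 had 27.7 in its 3′ UTR.

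The 4 hypomethylated sites were single cytosines at 4 genes on 4 chromosomes, with differences no larger than 36.4 percentage points in size. Foxo3, which maintains blood stem cells and acts downstream of insulin and Akt signalling, had -36.4 percentage points per the authors' deposited table in intron 2 of 3, 62362 bp downstream of its start (chromosome 10, 41934186, mm9). Hand2, a heart and limb bHLH factor, had -28.4 percentage points per the authors' deposited table at an intergenic site 5341 bp downstream (chromosome 8, 59805121). Foxb1, a forkhead gene of the developing brain, had -25.7 percentage points per the authors' deposited table in exon 2 of 2 (chromosome 9, 69607253). With the Twist1 site, all 4 lay downstream of the starts, and none lay in a promoter. Of hypermethylated sites, 37.5% at these genes and 36.8% at other genes lay upstream, and 5.21% and 11.3% lay in promoters. The 4 sites are too few to be set apart from these shares, and no test was made.

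More than any other feature, intergenic DNA held the hypermethylated sites of these genes. Intergenic sites were 55 of 96 (57.3%, exact interval 46.8 to 67.3%) and 35.8% of the others (34.6 to 37.0%). Introns held 16 (16.7%, 9.84 to 25.7%) and 31.5% of the others, and promoters 5 (5.21%, 1.71 to 11.7%, an interval that includes the 11.3% of the others). Exons held 18 (18.8%) and 19.6% of the others, and termination sites 2 (2.08%) and 1.81%. Foxa2 alone supplied 10 of the 55 intergenic sites, and without it the intergenic share was 52.3%. No test was made, since sites of a gene share their source, and gene length, which sets how much intron there is to sample, was not tested.

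**Figure D4:**
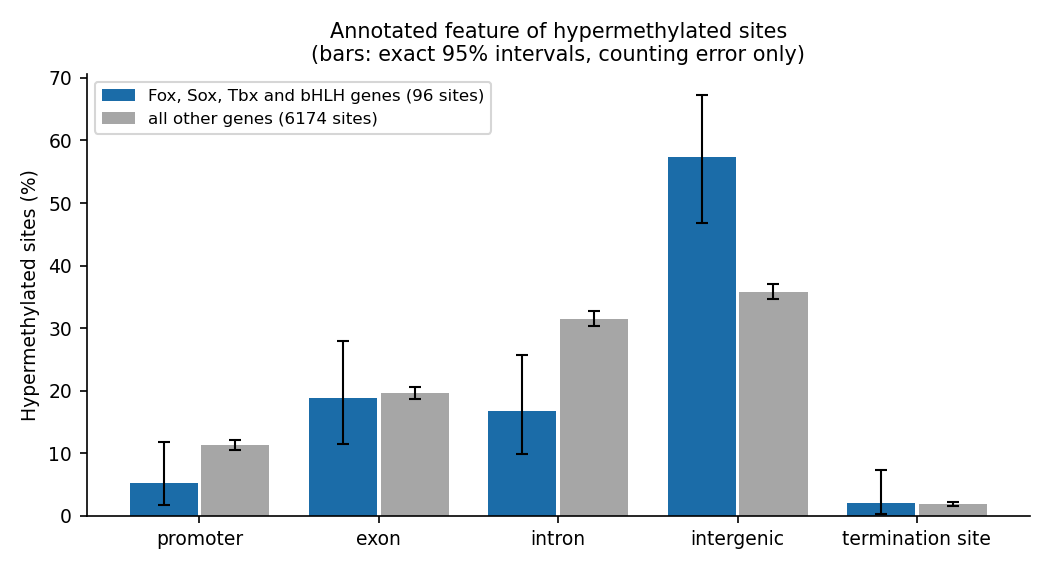
Share of hypermethylated sites (vertical axis, percent) by annotated feature, for the 96 sites of the family genes and the 6174 sites of all other genes; error bars are exact 95% intervals that cover counting error only. The intergenic bars stand at 57.3 and 35.8%, the intron bars at 16.7 and 31.5%.

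The sites lay within 5000 bp of a start about as often as others. Within 5000 bp of a start lay 43 of the 96 hypermethylated sites (44.8%, exact interval 34.6 to 55.3%) and 45.9% of the others. Their distribution within that distance was different in count: 13 sites (13.5%, 7.41 to 22.0%) lay within 1000 bp and 30 (31.3%, 22.2 to 41.5%) between 1000 and 5000 bp, against 26.4% and 19.5% of the others. The median distance was 7922 bp for the 96 sites and 6824 bp for the others. Upstream of the start lay 36 of the 96 (37.5%) and 36.8% of the others. By family, 22 of 37 bHLH sites, 16 of 37 Fox sites, 3 of 11 Tbx sites and 2 of 11 Sox sites lay within 5000 bp.

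**Figure D5:**
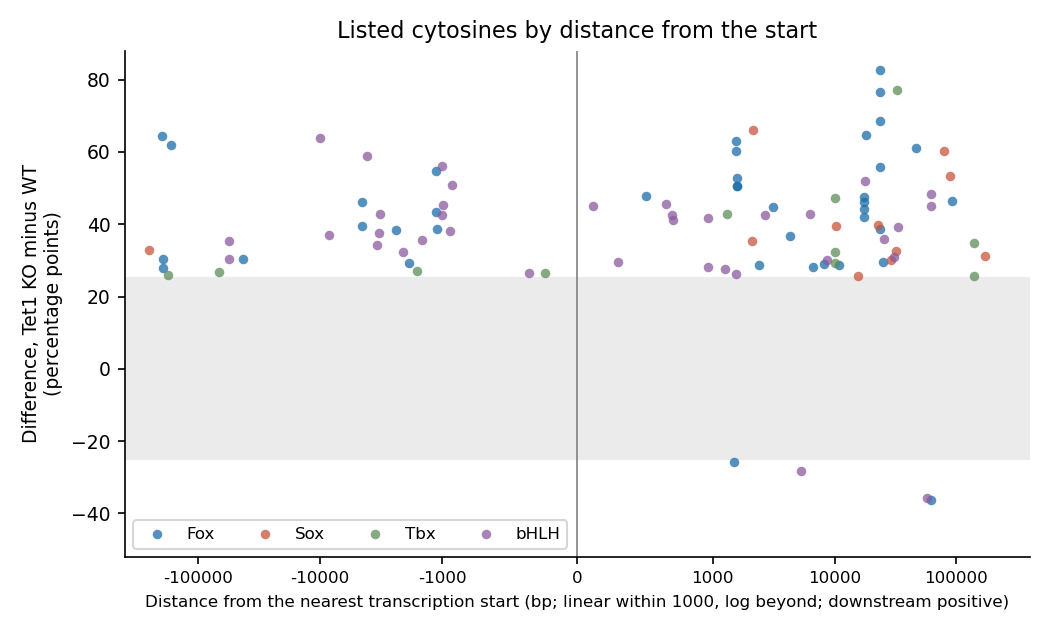
Methylation difference, Tet1 KO minus WT in percentage points (vertical axis), against distance from the nearest transcription start in bp (horizontal axis, linear within 1000 bp and logarithmic beyond, downstream positive) for 97 of the 100 listed cytosines, coloured by family; the grey band is the range the lists leave out. The highest points are Foxa2 sites at 82.7, 76.5 and 68.5, 23475 to 23518 bp downstream, and the Tbx5 site at 77.1, 32247 bp downstream. The 4 hypomethylated points all lie downstream, as do most of the hypermethylated points.

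Many listed genes of these families held several sites. At least 2 hypermethylated sites were held by 24 of the 36 genes (66.7%, exact interval 49.0 to 81.4%) and by 43.8% of the other genes, and the mean was 2.67 sites a gene against 2.07. Joined below 1000 bp, the 96 sites formed 65 regions, of which 17 (26.2%) held at least 2 sites, against 31.9% of the regions of other genes. Those 17 regions had a median span of 41 bp, and in 16 of them (94.1%) all sites were on 1 strand. The share was 71.0% among the 1202 multi-site regions of other genes, here counted over both directions. Neighbouring sites of 1 strand can come from the same reads, so a cluster such as that of Foxi2 is better read as a single measured stretch than as several measurements.

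CpG islands held 7 of the 71 intronic and intergenic hypermethylated sites (9.86%, exact interval 4.06 to 19.3%) and 6.30% of the others. These 7 belonged to Foxa2, Foxd3, Foxl1, Neurog2, Tbx5 and, with a pair of sites, Twist2. Repeats held 5 of the 71 (7.04%) and 10.6% of the others, at Foxk1, Foxe1, Foxa1 and Sox9. Transcripts of other genes carried 8 of the 100 sites, those of Sox1ot, Sox2ot, Alpk1, Acacb and Gpr153 given above. The same count was not made for the other listed sites, so 8 of 100 cannot be called many or few.

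Of 25 family genes known for roles in blood, 4 (16.0%) were nearest to a listed cytosine, and each had 1 site: Hey2 and Tbx21 hypermethylated, Foxo3 and Twist1 hypomethylated, with the values above. That share was near the 13.7% of all protein-coding genes, and 33.3% of the 120 family genes were listed. No interval or test was made for these 25 genes, so their share cannot be set apart from either. The 25 were also chosen with earlier results of these data known. Gata1, Gata2 and Gata3, which direct erythroid, stem cell and T cell programmes, were not listed, nor were, among others, Hes1, Id1, Id2, Id3, Foxo1, Foxp1, Sox17, Sox4 or Sox6.

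Relatives of the same domain families that the name rule does not take were listed at shares from 0 to 45.5%. Over all protein-coding genes the share was 13.7%, with 12.3% nearest to a hypermethylated site and 1.77% to a hypomethylated one. Of 58 other bHLH genes, 18 (31.0%) were listed, 16 with hypermethylated sites alone, and their 33 hypermethylated sites had a median of 42.7 percentage points per the authors' deposited table. Tcf3, an E protein partner of proneural and lymphoid bHLH factors, had 3 sites averaging 60.1 percentage points per the authors' deposited table, at 30376 to 30419 bp. Myod1, the muscle determination gene, had 61.4 and 28.3 percentage points per the authors' deposited table within 246 bp of its start. Lyl1, a bHLH factor of blood stem cells, had 1 exonic site at 33.8 percentage points per the authors' deposited table. The hypomethylated exceptions were Tcf4 (-44.0) and Hif1a (-25.7 percentage points per the authors' deposited table).

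Among the 4 T-box genes with other names, T, the mesoderm factor brachyury, was listed, with 7 intergenic sites averaging 44.0 percentage points per the authors' deposited table at 91103 to 92069 bp. Of 11 other HMG box genes 5 had hypermethylated sites and none a hypomethylated one, while none of 8 other genes with GATA-type zinc fingers was listed. Of 37 blood transcription factors from other families, 13 (35.1%) were listed, 9 with hypermethylated sites alone, and their 29 hypermethylated sites had a median of 37.2 percentage points per the authors' deposited table. A hypomethylated site was nearest to 4 of the 37, with 1 such site each, and to 1.77% of all protein-coding genes. The listed share of the 37, over both directions, was thus close to the 33.3% of the 120 family genes. It was above the 13.7% of all protein-coding genes, with no test made.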

How the data were processed

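Bisulfite libraries of LSK cells from 3 Tet1 KO and 3 WT mouse samples were sequenced and processed by the study's authors. The submitters' processing notes name Bismark and the build mm9, with neither role nor version. The caller, its coverage minimum and its q-value limit are not stated in the sources used here. The authors' deposited tables give 1 methylation difference in percentage points and 1 distance in bp per cytosine, and 0 columns of values per sample, so no test was made and depth is unknown.

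Sites were taken by nearest gene name (Python 3.11.15, pandas 2.3.3). Deposited distances change sign with the cytosine's strand. With reverse-strand signs turned, all 2546 sites within their nearest gene's own transcript lay downstream of its start, against 1295 as deposited. Placed by that distance in RefSeq windows, 91 of 124 sites of genes with 1 window fell on a CpG, and at most 13 at shifts of up to 5 bp. Untranslated exons counted as exons. Symbols of all 40 genes matched RefSeq by Entrez identifier, and positions are mm9 unless marked. The members and gene lists were chosen with earlier results of these data known. Genes described in full were those with the most sites, any promoter or hypomethylated site, or a blood role. The joining and naming code was tested on simulated data. The sites of 1 gene are counted in the totals but not reported singly here or drawn in the plots of single sites.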

Additional observations from a re-analysis of the deposited data

How the results depend on the processing

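No result was tested, so the alternatives show how the counts and medians move. They were a minimum of 40 percentage points, forward-strand cytosines, regions joined below 200, 1000 or 5000 bp, autosomes, names ending after the digits, and leaving out Foxa2. At 40 percentage points the hypermethylated share was 100% of 47 sites, the genes with hypermethylated sites alone numbered 22 instead of 36, and the median difference was 49.5 percentage points. These 3 values moved because that limit removes smaller differences, the 4 hypomethylated sites among them. The other 37 of 40 values stayed inside the exact 95% interval of the reported value, or within 1.5 times for the gene count. Part of that count was fixed in advance. The autosome and name settings kept all 100 sites, so their values could not move. Joining sites within a gene could not change the gene count. The intergenic share ranged over 48.9 to 59.3% and the share within 5000 bp over 37.7 to 51.1%. The list of forward-strand sites kept 57 of the 100. Leaving out replicates was not run, and no paired analysis was possible because the tables hold no values per sample.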
